A study of Homo sapiens with 11 samples.

Results

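Long noncoding RNAs (lncRNAs) are transcripts without a long open reading frame, and 9 of them are described here in prostate epithelial cells moved to low oxygen. They are the nuclear transcripts MALAT1, NEAT1 and KCNQ1OT1, the microRNA hosts MIR210HG, MIR22HG, MIR31HG, MIR17HG and H19, and PVT1, the neighbour of MYC. They were chosen by name, and each was matched by its gene symbol to 1 row of a table of 60676 Ensembl genes. All 9 were among the 19981 genes that passed the filter on low counts, and 2631 of those tested genes are annotated as lncRNAs.

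The study compared the transcriptome of RWPE1 cells, an immortalized and non-tumorigenic line of human prostate epithelium, between normoxia and hypoxia. RNA longer than 200 nucleotides was read in 11 libraries: 3 from normoxia (0 h) and 3, 3 and 2 from cells kept at 1% oxygen for 6, 12 and 24 h. All cells grew in keratinocyte serum-free medium, and the hypoxic cells also received 10 mM HEPES buffer, and the effects of low oxygen and of the buffer therefore cannot be told apart. The line is a single culture model, no separate cultures are named for the replicates, and p-values measure only the spread between these libraries.

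The libraries held 27496009 to 49488345 counts. The basal markers KRT5, KRT14, TP63 and ITGB4 were abundant in every library (KRT5 at 6077 to 15881 CPM, counts relative to the TMM-scaled library size), while the luminal marker KLK3 was at 0 in every library although KRT8 and KRT18 were present. Leukocyte and endothelial markers summed to at most 0.506 CPM, and of the fibroblast markers COL1A1 alone was measured, at 27.7 to 60.5 CPM, with COL1A2 and PDGFRB near 0. Epithelial markers moved with hypoxia: the luminal list summed to 227 to 257 CPM in normoxia and, after 6, 12 and 24 h, to 615 to 807, 817 to 886 and 1064 to 1796 CPM. The basal list summed to 7600 to 10427 CPM in normoxia and then to 10666 to 16190, 16923 to 19534 and 15054 to 20375 CPM. Neither list overlapped normoxia at any time, and the part of these shifts, and of the mitochondrial share, in the lncRNA results was not tested. Replicate 2 at 24 h stood apart, with 0.369% of its counts from mitochondrial genes against 1.74% in replicate 1, 10.2% to 10.3% in normoxia and, after 6 and 12 h, 4.30% to 5.27% and 4.78% to 6.78%, and a TMM scaling factor of 0.539 against 0.851 to 1.32 in the others. The 24 h results are therefore also given without each of its libraries. Replicates differed unequally: chi-square per degree of freedom was 262 for the 24 h pair, 22.0 to 70.7 within 6 and 12 h and 3.13 to 11.3 in normoxia. The SE and p-values at 24 h rest on a spread estimated over all groups.

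MALAT1 accumulates in nuclear speckles, bodies rich in splicing factors, and NEAT1 is the scaffold around which paraspeckles assemble. KCNQ1OT1 and H19 are imprinted: KCNQ1OT1 is transcribed from the paternal allele and silences neighbouring genes in cis, and H19 is transcribed from the maternal allele and is processed to a microRNA. A microRNA host gene makes a primary transcript from which DROSHA cuts a hairpin and DICER1 a short guide RNA, whose seed (bases 2 to 8) pairs with target mRNAs. MIR210HG hosts the microRNA best known as a target of hypoxia-inducible factor (HIF), and MIR17HG hosts a growth-promoting cluster.

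The short products themselves lie below the size limit of the RNA, so only the host transcripts were measured, and the sequences show what each host carries. These are mature forms from RefSeq (GRCh38.p14), written 5′ to 3′ with the seed in capitals.
MIR210HG, hsa-miR-210-3p: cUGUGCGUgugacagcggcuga
MIR22HG, hsa-miR-22-3p: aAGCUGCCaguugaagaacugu
MIR31HG, hsa-miR-31-5p: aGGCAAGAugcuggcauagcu
H19, hsa-miR-675-5p: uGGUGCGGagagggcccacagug
MIR17HG, hsa-miR-17-5p: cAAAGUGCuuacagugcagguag
MIR17HG, hsa-miR-20a-5p: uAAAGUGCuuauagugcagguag
MIR17HG, hsa-miR-18a-5p: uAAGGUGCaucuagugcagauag
MIR17HG, hsa-miR-19a-3p: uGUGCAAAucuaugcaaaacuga
MIR17HG, hsa-miR-19b-3p: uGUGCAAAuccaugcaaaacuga
MIR17HG, hsa-miR-92a-3p: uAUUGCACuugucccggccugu
Of the 6 microRNAs in MIR17HG, miR-17 and miR-20a share the seed AAAGUGC, and miR-19a and miR-19b share GUGCAAA. The other hosts listed carry 1 each, and no seed was shared between the hosts listed. The reference used held no hairpin within PVT1, so whether PVT1 hosts any was not examined. The hairpins have rows of their own in the count table, which held 0 to 18 counts for MIR210, 0 to 8 for MIR31 and 0 in every library for the other 8 hairpins.

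HIF binds a short core motif, ACGTG or GCGTG. The promoter windows (250 bases before to 50 after the RefSeq start, GRCh38.p14, minus strand of the genome, written 5′ to 3′ along the gene) of the hosts MIR210HG and MIR22HG each hold 1 match to each core, shown in capitals. In MIR22HG the ACGTG match is on the opposite strand and reads CACGT.
MIR210HG, chr11:568408-568707: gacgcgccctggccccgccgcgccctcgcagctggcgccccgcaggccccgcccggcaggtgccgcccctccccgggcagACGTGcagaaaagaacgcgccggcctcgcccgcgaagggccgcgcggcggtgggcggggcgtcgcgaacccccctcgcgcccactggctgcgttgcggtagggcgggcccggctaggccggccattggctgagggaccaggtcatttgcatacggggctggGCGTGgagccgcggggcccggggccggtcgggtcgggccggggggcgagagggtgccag
MIR22HG, chr17:1716161-1716460: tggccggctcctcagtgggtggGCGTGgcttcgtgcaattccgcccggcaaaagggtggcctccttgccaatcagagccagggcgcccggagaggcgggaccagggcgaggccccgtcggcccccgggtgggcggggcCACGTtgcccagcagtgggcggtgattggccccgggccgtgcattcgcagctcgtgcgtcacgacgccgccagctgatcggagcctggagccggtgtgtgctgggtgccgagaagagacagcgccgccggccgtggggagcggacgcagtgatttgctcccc
Over both strands, 48.4% of 35116 promoter windows of this length hold ACGTG or GCGTG, so a match is common. The RefSeq promoter table matched 6 of the 9 by symbol. Besides these hosts, MALAT1 has 2 annotated starts and matches in both windows, whereas MIR31HG, MIR17HG and H19 have none. A match is a string of letters, not a measured binding site, and no match says only that these letters are not in the window.

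Read against normoxia, 5 of the 9 lncRNAs changed at 6 h, where NEAT1 and MALAT1 were lower and MIR22HG, PVT1 and KCNQ1OT1 higher. At 12 h, 6 changed: PVT1 and MIR22HG were higher and NEAT1, MALAT1, MIR17HG and KCNQ1OT1 lower. At 24 h, 7 changed, with PVT1 and MIR22HG higher and NEAT1, MALAT1, MIR17HG, MIR31HG and KCNQ1OT1 lower. To be called, a gene needed an adjusted p (Benjamini-Hochberg over all tested genes) under 0.05 in the quasi-likelihood test of edgeR. Of all tested genes 52.8%, 51.2% and 61.2% were called at 6, 12 and 24 h (25.1%, 24.2% and 29.9% higher and 27.7%, 27.1% and 31.3% lower), so counts of 5, 6 and 7 of 9 are read as no result about these genes as a group. Among the 2631 tested lncRNA genes the median log2 fold change was -0.78, -0.87 and -1.11 at 6, 12 and 24 h, against -0.01, -0.42 and -0.67 for the 9, and no test of that difference was made. The 3 comparisons share the same normoxic libraries.

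**Figure D1:**
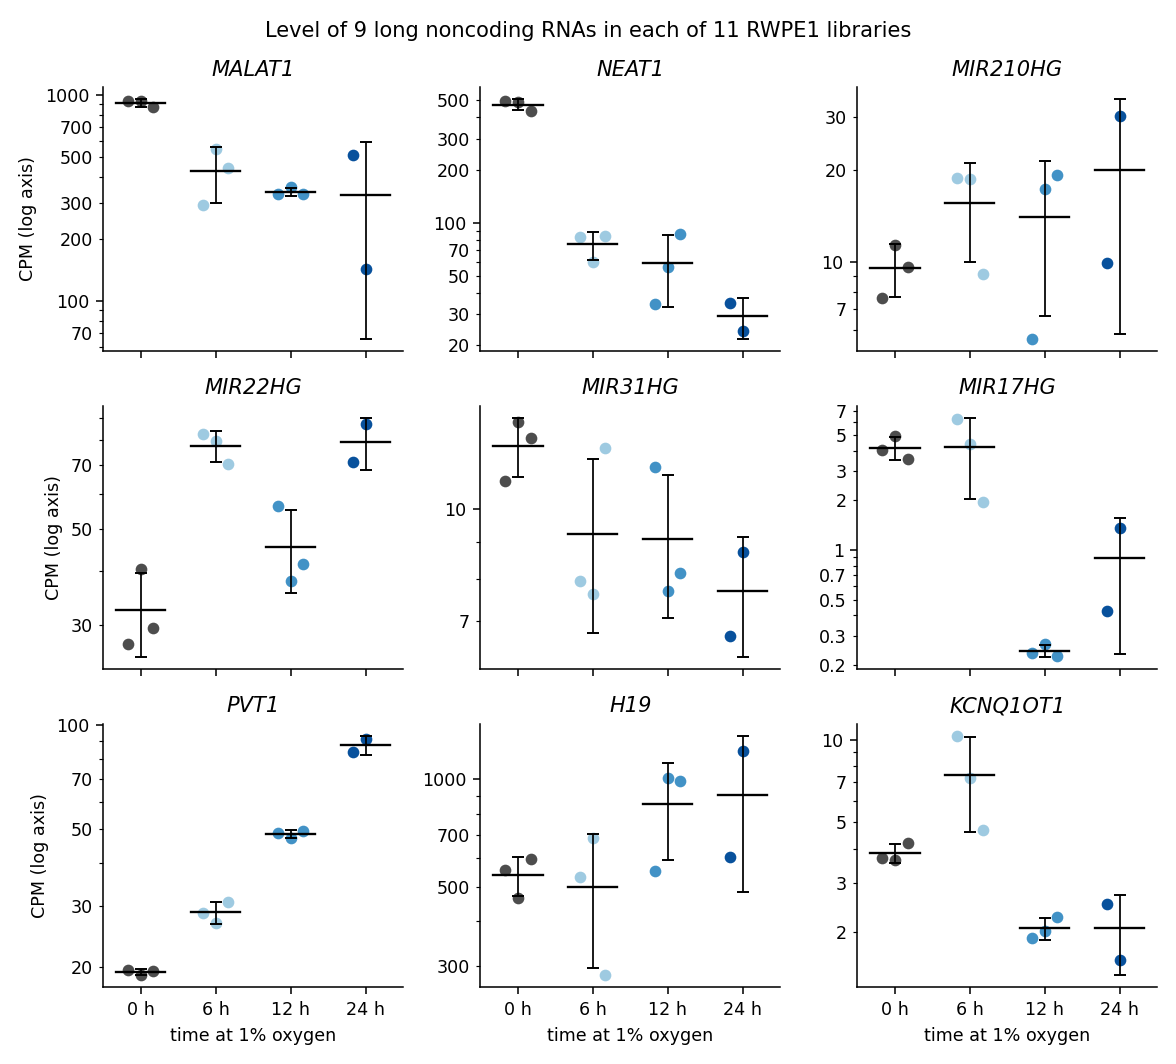
Level of each of the 9 lncRNAs in CPM (log axes that differ between panels) against hours at 1% oxygen. Points are libraries, horizontal lines are means and error bars are SD (n = 3, 3, 3 and 2). MALAT1 and NEAT1 lie below normoxia in all 8 hypoxic libraries, PVT1 lies above it in all 8, and MIR17HG sits at 0.228 to 0.267 CPM at 12 h.

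NEAT1 (ENSG00000245532, chr11:65422774-65445540 on GRCh38, plus strand, with an unspliced longest transcript) had the largest drop of the 9 at 6 and 24 h. It was measured at 496, 491 and 434 CPM in the normoxic libraries, at 82.8, 59.6 and 83.8 CPM at 6 h, at 34.5, 55.9 and 86.2 CPM at 12 h and at 35.0 and 24.1 CPM at 24 h. Every hypoxic library lay at least 5.03-fold below every normoxic one. The log2 fold change was -2.65 ± 0.29 (SE) at 6 h, -3.01 ± 0.29 at 12 h and -4.00 ± 0.36 at 24 h, with adjusted p of 1.41e-05, 9.69e-06 and 3.46e-06 by edgeR's quasi-likelihood test. Of all tested genes, 2.15%, 0.711% and 1.71% had a lower fold change at 6, 12 and 24 h. From 6 to 24 h it fell further, by 1.35 ± 0.32 (adjusted p 0.00521), a comparison in which 42.4% of all tested genes were called. That further drop was not called with the offset for GC content and length (-0.51, adjusted p 0.184) or with sample quality weights in limma-voom (-1.24, adjusted p 0.24). In these bulk libraries, fewer cells carrying an RNA and less of it per cell cannot be told apart.

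MALAT1 (ENSG00000251562, chr11:65497640-65508073, plus strand, unspliced longest transcript) lies next to NEAT1 on the same strand and was also lower. The normoxic libraries held 935, 941 and 872 CPM. Hypoxia left 294, 549 and 442 CPM at 6 h, 330, 356 and 331 CPM at 12 h, and 513 and 142 CPM at 24 h. The 12 h libraries agreed closely, those of 6 h less, and the pair at 24 h differed 3.60-fold, yet none reached the normoxic range. Relative to normoxia, MALAT1 fell by 1.10 ± 0.35, 1.43 ± 0.36 and 1.48 ± 0.41 on the log2 scale (edgeR adjusted p 0.0198, 0.00523 and 0.00761). The 24 h value was -2.74 without replicate 1 and -0.86 without replicate 2, called in both. It was not called at 24 h with these 2 groups fitted alone (adjusted p 0.0596), and the 6 h call was lost without 6 h replicate 1 (adjusted p 0.0868) or replicate 3 (adjusted p 0.0504). Of the exonic bases of MALAT1, 83.7% are also covered by a gene on the other strand, and the strand setting of the counting is not given in the sources used here.

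The 2 transcripts did not fall in proportion. NEAT1 had 49.7% to 53.0% as many counts as MALAT1 in normoxia, 10.9% to 28.2% after 6 h, 10.5% to 26.0% after 12 h and 6.82% to 16.9% after 24 h, and hypoxic and normoxic libraries did not overlap. This ratio needs no scaling between libraries, and its log2 fell by 1.52 on average at 6 h and by 1.67 at 12 h; with 3 libraries on either side an exact permutation test, two-sided, gave p = 0.1 for each, the smallest it can give. Together both transcripts made up 0.168% to 0.189% of all counts in normoxia and 0.00896% to 0.0626% in hypoxia. The other lncRNA genes together took 1.62% to 1.63% of the counts in normoxia and 1.19% to 3.10% in hypoxia, so the summed share of lncRNAs varied mostly among hypoxic replicates and did not follow MALAT1 and NEAT1.

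**Figure D2:**
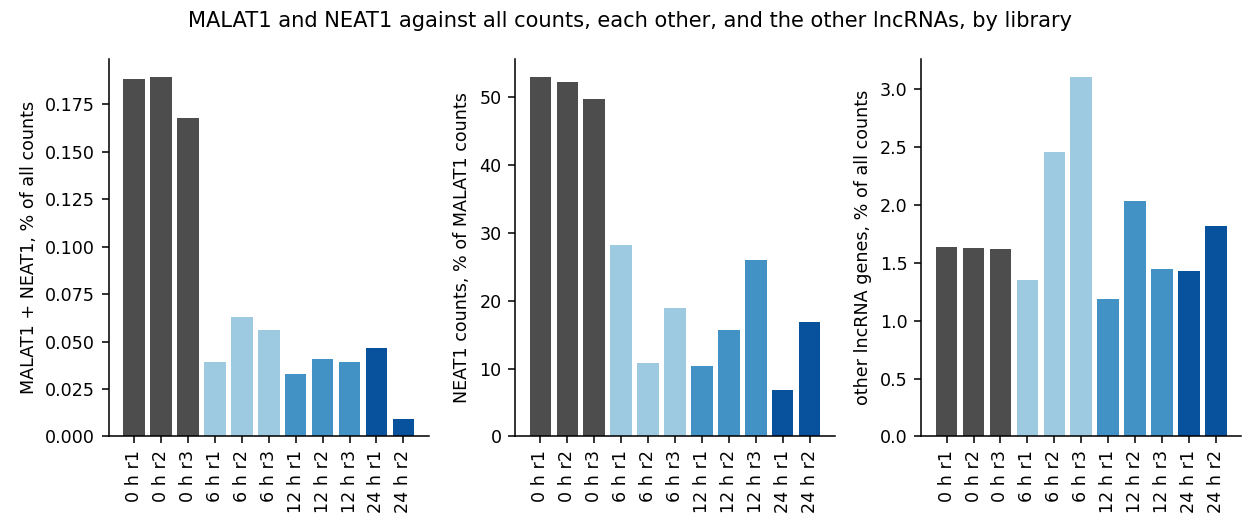
Bars give, for each of the 11 libraries (r, replicate), MALAT1 and NEAT1 as a percent of all counts, NEAT1 counts as a percent of MALAT1 counts, and all other lncRNA genes as a percent of all counts. The first falls from at least 0.168% to at most 0.0626% and the second from at least 49.7% to at most 28.2%, while the third spans the normoxic 1.62% to 1.63% on both sides.

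FRMD8, the nearest tested protein-coding gene 9.25 kb from NEAT1, was higher at 6, 12 and 24 h, with log2 fold changes of 2.22, 1.60 and 0.76. Of 16 proteins of paraspeckles, 8, 8 and 10 were higher and 1, 1 and 2 lower at 6, 12 and 24 h, with medians of 0.38, 0.38 and 0.61. Over all tested genes 25.1%, 24.2% and 29.9% were higher, 27.7%, 27.1% and 31.3% lower, and the medians were -0.002, -0.03 and -0.06. SFPQ, a core protein needed for paraspeckles to form, had log2 fold changes of 1.78 ± 0.14, 1.54 ± 0.14 and 1.73 ± 0.15. RBM14, another assembly factor, had 1.99, 1.58 and 0.62, PSPC1 had 0.99, 0.94 and 1.65, and HNRNPM had 1.27, 1.05 and 1.12, and all were called at each time. Of 20 nuclear speckle proteins and kinases, 11 were higher at each time and 3, 1 and 4 lower, to be read beside the same shares. The splicing factor SRSF3 (1.12, 1.33 and 2.36), the export adaptor ALYREF (1.32, 1.39 and 1.93) and the splicing kinase PRPF4B (1.64, 1.35 and 1.14) were higher, and the splicing factor SRSF5 was lower (-1.12, -1.61 and -1.84).

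KCNQ1OT1 (ENSG00000269821, chr11:2597308-2700003, minus strand) has an unspliced longest transcript of 91667 bases and was the scarcest of the 9 per kilobase in normoxia. It had 3.72, 3.65 and 4.21 CPM at 0 h, 10.3, 7.26 and 4.68 CPM at 6 h, 1.89, 2.02 and 2.26 CPM at 12 h and 2.52 and 1.58 CPM at 24 h. All 6 h libraries lay above normoxia and all later ones below it. On the log2 scale the change was 0.94 ± 0.27 at 6 h, -0.90 ± 0.28 at 12 h and -0.90 ± 0.33 at 24 h (edgeR adjusted p 0.0101, 0.0159 and 0.0304). Between 6 and 12 h it fell by 1.84 ± 0.28 on the log2 scale (adjusted p 0.00589), a comparison in which 4.95% of all tested genes were called. The 6 h call was lost without 6 h replicate 1 (adjusted p 0.0549), the 12 h call without 0 h replicate 3 (0.0516) or 12 h replicate 1 (0.0526), and that of 24 h on leaving out 0 h replicate 1 (0.0503), 0 h replicate 3 (0.0714) or 24 h replicate 2 (0.162). With an offset for GC content and length, chosen after the data were seen, the 24 h value was -0.19 (adjusted p 0.556), and limma-voom did not call it either (adjusted p 0.0516, or 0.311 with sample quality weights). CDKN1C, an imprinted cell cycle inhibitor 183 kb away, had log2 fold changes of 0.63, 0.67 and 1.89 and was called higher at 24 h. TSSC4, on the other side, had 0.45, 0.69 and 0.92 and was called at 12 and 24 h.

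Among the microRNA hosts, MIR22HG was higher and MIR17HG lower, each with a different time course. MIR22HG (ENSG00000186594, chr17:1711447-1717174, minus strand) makes the precursor of miR-22. It had 27.1, 40.4 and 29.6 CPM in normoxia, 82.6, 79.8 and 70.3 CPM at 6 h, 56.5, 37.9 and 41.5 CPM at 12 h and 71.5 and 87.0 CPM at 24 h. The 6 and 24 h libraries lay above all normoxic ones, while 12 h and normoxia overlapped. Against normoxia the log2 fold change was 1.26 ± 0.19 at 6 h (adjusted p 0.000152), 0.48 ± 0.19 at 12 h (adjusted p 0.0461) and 1.29 ± 0.21 at 24 h (adjusted p 0.000179), all by edgeR. From 6 to 12 h it fell by 0.78 ± 0.19 (adjusted p 0.0362), and from 12 to 24 h it was higher by 0.81 ± 0.21 (adjusted p 0.0134), where 28.4% of all tested genes were called. The 12 h call against normoxia was lost without 0 h replicate 1 or 3, any library of 6 h, or 12 h replicate 1 or 3 (log2 fold change 0.30 to 0.55), and with median-of-ratios or upper-quartile factors (adjusted p 0.0544 and 0.0926). The drop from 6 to 12 h was not called without 0 h replicate 1 or 3, 6 h replicate 1 or 2, or 12 h replicate 2 or 3 (-0.78 to -0.67). The rise from 12 to 24 h was not called without 12 h replicate 2 or 3 or 24 h replicate 2 (0.65 to 0.75). Its neighbours were not called higher: WDR81, which it overlaps on the other strand, had log2 fold changes of -0.17, -0.12 and -1.02 and was lower at 24 h, and TLCD2 was lower at all times (-1.11, -1.03 and -1.29).

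MIR17HG (ENSG00000215417, chr13:91347686-91397592, plus strand) was lower from 12 h on, after a 6 h level that was not called against normoxia. It had 4.07, 4.90 and 3.58 CPM in normoxia, 6.25, 4.41 and 1.95 CPM at 6 h, 0.237, 0.267 and 0.228 CPM at 12 h, and 0.428 and 1.36 CPM at 24 h. The 12 h libraries held 7, 9 and 10 counts each, the fewest of any of the 9 lncRNAs, against 149 to 184 in normoxia, and neither 12 h nor 24 h overlapped normoxia. The log2 fold change was -0.01 ± 0.38 at 6 h, which was not called, -4.08 ± 0.49 at 12 h (adjusted p 4.18e-05) and -2.27 ± 0.52 at 24 h (adjusted p 0.00232), and only 0.125% of all tested genes had a lower 12 h value. Between 6 and 12 h the log2 level fell by 4.08 ± 0.49 (adjusted p 0.003). From 12 to 24 h it rose by 1.82 ± 0.62 (adjusted p 0.0443), a call lost without any of 0 h replicates 1, 2 and 3, 6 h replicate 2, 12 h replicates 1, 2 and 3, and 24 h replicate 2 (adjusted p 0.0539 to 0.542, log2 fold change 0.79 to 1.87). The 24 h value was -1.67 without replicate 1 and -3.30 without replicate 2, and was called in both, but not by limma-voom with sample quality weights (adjusted p 0.114). The protein-coding genes next to it were not lower, but both were scarce, at 0.405 CPM (GPC5) and 0.264 CPM (SLITRK5) on average. GPC5, 1.03 kb away, had log2 fold changes of 1.45, 2.05 and 1.34 and was called higher at 6 and 12 h. SLITRK5, 3651 kb away, had 1.38, 1.89 and 0.54 and was called at the same times.

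MIR210HG (ENSG00000247095, chr11:565657-568457, minus strand) had higher mean CPM in hypoxia but was not called in the main edgeR fit, with all libraries and the filter on low counts. It had 7.65, 11.4 and 9.67 CPM in normoxia, 18.9, 18.8 and 9.17 CPM at 6 h, 5.62, 17.3 and 19.3 CPM at 12 h and 9.97 and 30.03 CPM at 24 h. In each hypoxic group 1 library lay within or below the normoxic range and the others above it. As a mean share of all counts it was 0.00125% in normoxia and 0.00163%, 0.00135% and 0.00123% at 6, 12 and 24 h, so the 24 h direction depended on the scaling. The log2 fold change was 0.70 at 6 h, 0.57 at 12 h and 1.06 at 24 h, with 95% intervals of -0.29 to 1.69, -0.42 to 1.55 and -0.03 to 2.15 (edgeR adjusted p 0.212, 0.319 and 0.085). These intervals hold both no change and a rise of more than 2-fold. The 24 h value was 1.60 without replicate 1 (adjusted p 0.0126) and 0.04 without replicate 2 (adjusted p 0.953), so that pair of libraries decides it. With sample quality weights, limma-voom called MIR210HG higher at 6 h (0.80, adjusted p 0.0323) and 12 h (0.90, adjusted p 0.00177), and edgeR called it at 6 h with these groups fitted alone (0.68, adjusted p 0.04). Without the filter, edgeR called it at 6, 12 and 24 h (adjusted p 0.00624, 0.0259 and 0.000174), and at 24 h it was also called without 12 h replicate 1 (1.06, adjusted p 0.0415). RASSF7, 1.63 kb away on the other strand, was higher at 6, 12 and 24 h (1.15, 1.12 and 2.49), and PHRF1, on the other side, was higher at 6 and 12 h (1.24 and 0.86) and not called at 24 h (0.05).

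H19 (ENSG00000130600, chr11:1995166-2004552, minus strand), the host of miR-675, was the most abundant of the 9 per kilobase. It was not called in any comparison with normoxia in the main edgeR fit. Its levels were 555, 465 and 598 CPM at 0 h, 533, 685 and 282 CPM at 6 h, 554, 1010 and 989 CPM at 12 h, and 606 and 1200 CPM at 24 h. In CPM the 6 and 12 h groups overlapped normoxia, and both 24 h libraries lay above it, replicate 1 by a narrow margin. The 24 h order depended on the scaling: as a share of all counts, H19 took 0.0615% to 0.0769% in normoxia and 0.0515% to 0.0646% at 24 h. The log2 fold change was -0.11 (95% interval -0.84 to 0.62), 0.66 (-0.07 to 1.39) and 0.74 (-0.06 to 1.54), with edgeR adjusted p of 0.797, 0.119 and 0.098. At 24 h it was 1.10 without replicate 1 (adjusted p 0.0208) and 0.15 without replicate 2 (adjusted p 0.765). At 12 h it was called by limma-voom with sample quality weights (0.76, adjusted p 0.00038) and with these groups fitted alone (0.66, adjusted p 0.0159), and without the filter edgeR called it at 12 h (adjusted p 0.00357) and 24 h (0.0102). MRPL23, 10.6 kb away and encoding a mitochondrial ribosomal protein, was higher at 12 and 24 h (0.70 and 2.14), and ASCL2 was higher at 6 and 24 h (1.23 and 2.11).

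MIR210HG and H19 were low in the same library at each hypoxic time, but did not deviate together in normoxia. There replicate 2 was highest in MIR210HG, at 11.4 CPM, and lowest in H19, at 465 CPM. The upper libraries of 12 h were also in opposite order, with 17.3 and 19.3 CPM of MIR210HG and 1010 and 989 CPM of H19. The Pearson correlation of their deviations from the group means was 0.873 over the 11 libraries (log2 CPM), with replicate 3 at 6 h and replicate 1 at 12 and 24 h low for both. Among the 36 pairs of the 9 lncRNAs this was the highest, and the next was 0.719 for MIR17HG and H19; the points share libraries, depth and scaling. Both are GC-rich, with 59.0% and 63.6% GC in the longest transcript against a median of 48.1% over tested genes. The mean GC of the counts was 48.5% to 49.7% in all libraries. At 6 h that of the low library, 49.1%, lay between the 48.5% and 49.4% of the others. The low libraries of 12 and 24 h had the lowest of their groups, 49.0% against 49.4% and 49.2%, and 48.8% against 49.7%. The part of base composition in this was not tested beyond the offset for GC content and length, under which MIR210HG was still not called (1.03 at 24 h) and H19 was called at 12 h (0.72, adjusted p 0.0494).

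**Figure D3:**
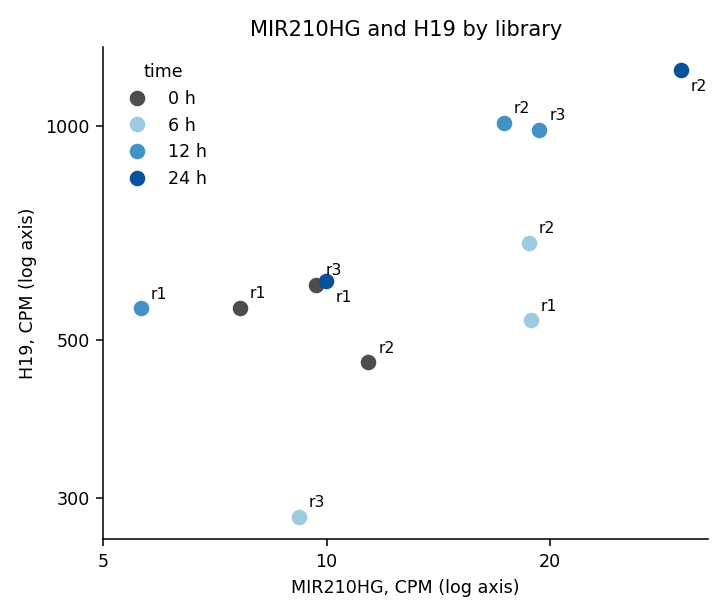
Each point is a library, with the level of MIR210HG on the horizontal axis and of H19 on the vertical axis, both in CPM on log axes, coloured by hours at 1% oxygen and marked with the replicate (r). The library with the most MIR210HG, at 30.03 CPM, also has the most H19, at 1200 CPM, and the lowest MIR210HG library of each hypoxic time is also the lowest in H19.

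MIR31HG (ENSG00000171889, chr9:21380073-21559891, minus strand) had lower means in hypoxia and was called at 24 h, with calls at 6 and 12 h that depended on the settings. It had 10.9, 13.1 and 12.5 CPM in normoxia, 7.96, 7.62 and 12.1 CPM at 6 h, 11.4, 7.70 and 8.16 CPM at 12 h and 6.67 and 8.72 CPM at 24 h. At 6 and 12 h 1 library each reached the normoxic range, and at 24 h neither did. Its log2 fold changes were -0.40 ± 0.22 (adjusted p 0.141), -0.42 ± 0.22 (adjusted p 0.118) and -0.67 ± 0.25 (adjusted p 0.0356) by edgeR, and leaving out 0 h replicate 2 (0.0869), 0 h replicate 3 (0.0745) or 24 h replicate 1 (0.131) ended the 24 h call. So did sample quality weights in limma-voom (0.275) and the offset for GC content and length (-0.32, adjusted p 0.327). It was called lower at 6 h with sample quality weights (adjusted p 0.0156), with library size alone (0.0174) and without 6 h replicate 3 (0.0257). At 12 h it was called with the same weights (0.000342), with library size alone (0.00479), with these groups fitted alone (0.0317) and without 12 h replicate 1 (0.0467). The interferon gene IFNE, which it overlaps on the same strand, was lower at 12 and 24 h (-1.85 and -2.18). KLHL9 was lower at 6, 12 and 24 h (-1.18, -0.90 and -1.63), and MTAP was not called at any time (-0.02 to 0.24).

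PVT1 (ENSG00000249859, chromosome 8, plus strand) rose at every step with a small spread. The normoxic libraries had 19.6, 18.95 and 19.5 CPM, those of 6 h 28.7, 26.8 and 30.9 CPM, those of 12 h 48.8, 47.2 and 49.5 CPM, and those of 24 h 83.4 and 91.4 CPM. No hypoxic library overlapped normoxia, and each later group lay above the earlier one. The log2 fold change from normoxia was 0.57 ± 0.12, 1.33 ± 0.12 and 2.17 ± 0.13 (edgeR adjusted p 0.00132, 5.75e-06 and 4.02e-07). The steps from 6 to 12 h (0.75 ± 0.12, adjusted p 0.00644) and from 12 to 24 h (0.85 ± 0.13, adjusted p 0.00158) were called as well, the first of them not without 12 h replicate 3 (0.74, adjusted p 0.0537). MYC, the oncogene 51.6 kb upstream on the same strand, had the opposite order of sizes, with log2 fold changes of 1.68 ± 0.22, 1.31 ± 0.22 and 0.68 ± 0.24 (adjusted p 6.51e-05, 0.000445 and 0.0277). GSDMC, the next tested gene on the other side at 1561 kb, was lower at 6 h (-0.77) and not called at 12 or 24 h (-0.49 and -0.79). PVT1 is annotated with 190 transcripts, and the counts do not separate them.

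**Figure D4:**
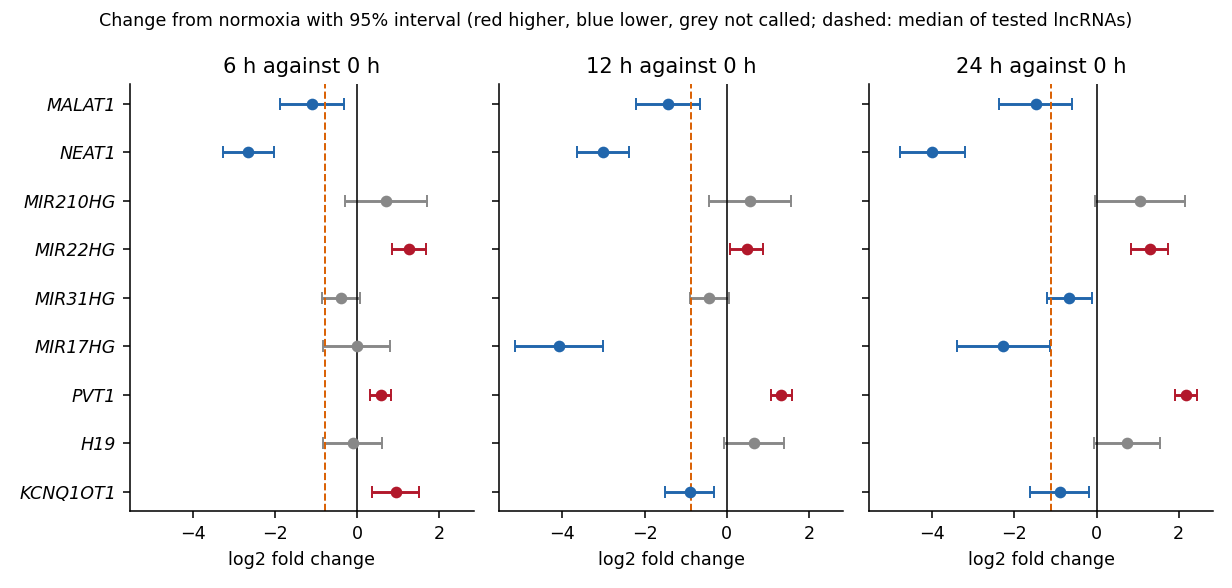
Log2 fold change from normoxia with its 95% interval for the 9 lncRNAs at 6, 12 and 24 h (red called higher, blue called lower, grey not called). The dashed line is the median of 2631 tested lncRNA genes, at -0.78, -0.87 and -1.11. PVT1 and MIR22HG lie right of 0 at all times, MALAT1 and NEAT1 left of it, and KCNQ1OT1 changes side between 6 and 12 h.

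Exact two-sided permutation tests on log2 CPM, of 3 hypoxic against 3 normoxic libraries, cannot go below 0.1. They reached it for MALAT1, NEAT1, PVT1 and KCNQ1OT1 at 6 and 12 h, for MIR22HG at 6 h and for MIR17HG at 12 h. Any gene whose groups do not overlap reaches it, so this adds nothing to the overlap counts that follow. Groups did not overlap for 5, 5 and 8 of the 9 at 6, 12 and 24 h against normoxia, compared with 69.6%, 72.3% and 73.0% of all tested genes. Scaling by library size alone shifted all tested genes to a median log2 fold change of -0.32, -0.50 and -0.97 at 6, 12 and 24 h. On that scale NEAT1 and MALAT1 were still called lower at each time and PVT1 higher at 12 and 24 h, whereas PVT1 at 6 h (0.26, adjusted p 0.211), KCNQ1OT1 at 6 h (0.61, adjusted p 0.125) and MIR22HG at 12 h (0.01, adjusted p 0.98) and 24 h (0.34, adjusted p 0.18) were not called. The steps of PVT1 were then 0.60 from 6 to 12 h (adjusted p 0.0622) and 0.39 from 12 to 24 h (adjusted p 0.119), and neither was called. Over all alternatives, the 24 h value against normoxia went as low as -0.28 for H19 and -0.02 for MIR210HG, against 0.74 and 1.06 in the main fit. These low values were not called.

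Per kilobase of annotated exons, the order of levels in normoxia was H19 (156 ± 19.6 CPM per kilobase, SD, n = 3), MALAT1 (87.8 ± 3.66), NEAT1 (20.8 ± 1.52), MIR22HG (10.4 ± 2.28), MIR210HG (4.12 ± 0.80), PVT1 (0.761 ± 0.014), MIR31HG (0.734 ± 0.069), MIR17HG (0.325 ± 0.052) and KCNQ1OT1 (0.0417 ± 0.0033). Neighbours in this order did not overlap between libraries except PVT1 and MIR31HG. At 24 h NEAT1 stood at rank 6 instead of rank 3, at 1.30 ± 0.34 (n = 2), below PVT1 at 3.44 ± 0.22, and the ranges of MALAT1 (13.6 to 49.2) and MIR22HG (23.0 to 28.0) overlapped. The place of PVT1 depends on the length used, since its longest transcript of 2450 bases gives 7.90 ± 0.15 in normoxia, above MIR210HG. Of the 9, 5 lie on chromosome 11.

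Other genes of the same kinds give the setting, and their counts are descriptions beside the shares of all tested genes (25.1%, 24.2% and 29.9% higher and 27.7%, 27.1% and 31.3% lower at 6, 12 and 24 h) and of the tested lncRNA genes (12.0%, 10.4% and 11.4% higher and 44.3%, 47.3% and 46.9% lower). Of 80 further microRNA host genes 33 were tested, and 4, 5 and 6 of these were higher and 13, 18 and 15 lower at 6, 12 and 24 h, with medians of -0.55, -1.28 and -0.87. MIR29B2CHG (log2 fold changes -1.22, -2.66 and -4.83), MIR4453HG (-1.25, -3.05 and -4.50) and MIRLET7IHG (-1.13, -2.43 and -3.40) were lower and MIR193BHG was higher (1.90, 1.56 and 1.70) at the 3 times. The lower hosts rest on few counts: in the scarcest group of each, no library held more than 12, 4 and 6, in that order. Of 25 other well-known lncRNAs 17 were tested, of which 4, 4 and 6 were higher and 7, 10 and 7 lower. UCA1, often raised in epithelial cancers, was higher (1.74, 2.51 and 2.90), as was DANCR (1.41, 1.58 and 2.72), a host of small nucleolar RNA. NORAD, which binds PUMILIO proteins, was lower (-1.03, -1.85 and -2.39), as was TUG1 (-0.86, -1.01 and -2.12). Of 16 genes of microRNA processing, 5, 4 and 3 were higher and 3, 4 and 9 lower at 6, 12 and 24 h, with medians of 0.13, 0.17 and -0.47. RAN, the GTPase that drives export of hairpins from the nucleus, was higher (0.92, 0.95 and 1.56), and AGO4, an Argonaute, (-0.80, -0.82 and -1.52) and PRKRA, a partner of DICER1, (-0.40, -0.51 and -0.38) were lower. Of the 17 neighbours of the 9 lncRNAs, 7, 8 and 7 were higher and 3, 3 and 4 lower.

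**Figure D5:**
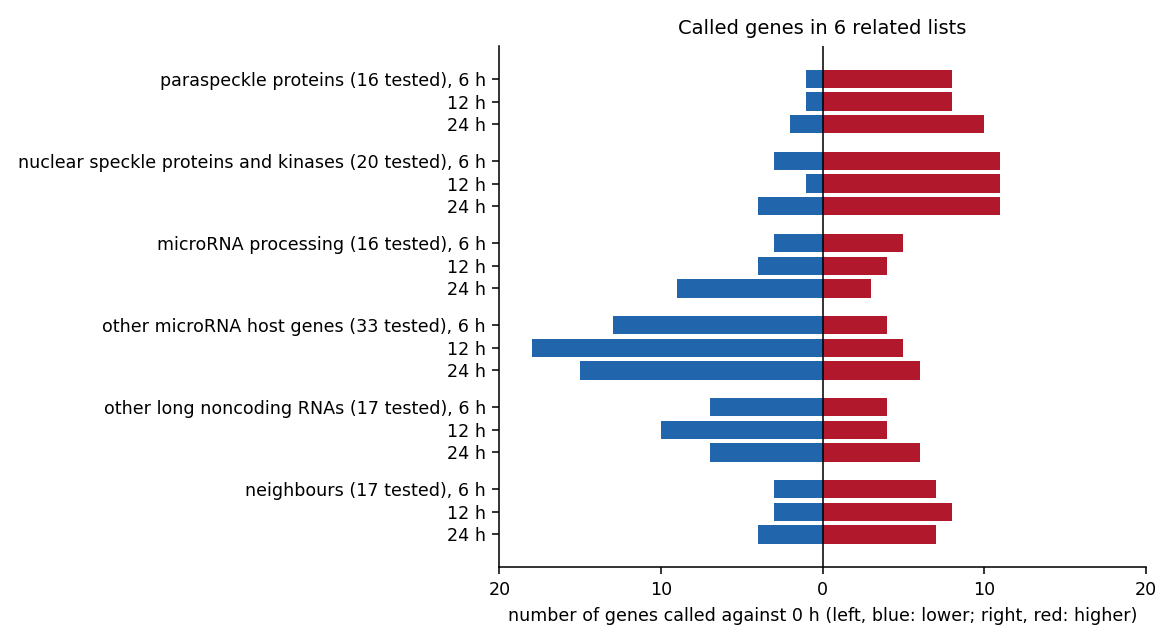
Number of genes called against normoxia at 6, 12 and 24 h in 6 lists, with lower genes to the left in blue and higher genes to the right in red. At 12 h, 18 of 33 tested microRNA hosts are lower and 5 higher, and 8 of 16 paraspeckle proteins are higher and 1 lower, where 24.2% of all tested genes are higher and 27.1% lower and 47.3% of tested lncRNA genes are lower.

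The genes whose log2 CPM followed each lncRNA most closely over the 11 libraries were taken from 13938 tested genes with a symbol and at least 1 CPM on average. They were TNS2, GK5 and NTF4 for NEAT1 (Pearson r 0.986 to 0.987) and NSFL1C, MRPL45 and FTH1P20 for PVT1 (0.986 to 0.991), whose courses were common: 812 and 878 genes had r over 0.9. Fewer followed MALAT1 (147, led by TCF7 at 0.987), MIR22HG (36, led by FGFR1OP2 at 0.974), KCNQ1OT1 (27, led by SIRT1 at 0.971), MIR17HG (23, led by RCHY1 at 0.985), H19 (8, led by SORD at 0.953), MIR210HG (4, led by ARSI at 0.935) and MIR31HG (3, led by STK33 at 0.938). These are descriptions over libraries that share time points, depth and scaling.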

How the data were processed

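RNA was sequenced as 75-cycle single ends after a stranded TruSeq build of 12 samples in 1 batch, of which 11 were analysed here and 1, the remaining 24 h replicate, was not. The authors trimmed the reads with Trimmomatic, aligned them with STAR to GRCh38 and made the deposited gene counts with featureCounts, as raw whole numbers, neither filtered nor normalized. Whether poly(A) RNA was selected, the strand setting and the handling of multimapping reads are not given in the sources used here. Per library 27496009 to 49488345 counts were available, and 0 columns were left over.

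Symbols, positions and lengths came from GENCODE release 44 (GRCh38), in which 60357 of 60676 gene identifiers were found. filterByExpr (minimum count 10, minimum total 15) kept 19981 genes. CPM values use TMM factors, log2 CPM a prior count of 2. edgeR's quasi-likelihood test (edgeR 4.0.16, R 4.3.3) was fitted to all 11 libraries with the time point as factor, and p-values were Benjamini-Hochberg adjusted over the tested genes, with calls under 0.05. SE is the absolute log2 fold change over the square root of F. limma 3.58.1 (voom), DESeq2 1.42.0, other scalings and filters, 2 groups only, the replicate block and each library left out were alternatives; the offset for GC content and length was added after seeing the data, as was the test of the NEAT1 to MALAT1 ratio. Permutation tests used scipy 1.17.1. The test was also run on simulated counts in which few genes changed. Many genes were called in these data, so that run does not check the scaling used here.

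The 9 lncRNAs and all lists were chosen with earlier results of these data known. Named from each list were up to 4 genes called in the same direction at 6, 12 and 24 h with the largest average change and at least 1 CPM, besides all neighbours of the 9 and, per lncRNA, the 3 genes of highest Pearson r. A neighbour is the nearest tested protein-coding gene on either side, or one the lncRNA overlaps; the values of 1 neighbour and 1 marker are not reported here. All permutation tests are two-sided. Whether replicate numbers pair the samples is not known from the labels used here. Deviations of same-numbered libraries correlated at -0.156 to 0.207 over 15 pairs, and of other libraries at -0.271 to 0.283 over 30 pairs. Deviations within a group sum to 0, so these values are not independent and cannot decide it.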

Additional observations from a re-analysis of the deposited data

Results flagged for a closer look

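Between times in hypoxia, 12 of the differences described for the 9 lncRNAs passed the test of the difference itself (edgeR's quasi-likelihood test, adjusted p under 0.05 over 19981 genes), all on the log2 scale. They were picked out because the change from normoxia then differs between the times compared.

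From 6 to 12 h, where 4.95% of all tested genes were called, the difference was -4.08 for MIR17HG (adjusted p 0.003), -1.84 for KCNQ1OT1 (0.00589), -0.78 for MIR22HG (0.0362) and 0.75 for PVT1 (0.00644).

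From 12 to 24 h, where 28.4% were called, it was 1.82 for MIR17HG (adjusted p 0.0443), 0.81 for MIR22HG (0.0134), 0.85 for PVT1 (0.00158) and -0.99 for NEAT1 (0.0332). That share depended on the fit. With these 2 groups alone 0 of 17807 tested genes were called, and with sample quality weights in limma-voom 1093 of 19981. The NEAT1 groups overlapped, and its call was lost without 12 h replicate 2 (adjusted p 0.0672), 12 h replicate 3 (0.131) or 24 h replicate 2 (0.174); with the offset for GC content and length its value was -0.29 (0.486).

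From 6 to 24 h, where 42.4% were called, it was -1.35 for NEAT1 (adjusted p 0.00521), -2.26 for MIR17HG (0.00442), -1.83 for KCNQ1OT1 (0.00107) and 1.60 for PVT1 (3e-05). With the same offset the NEAT1 value was -0.51 (adjusted p 0.184) and that of KCNQ1OT1 -0.73 (0.0437). Sample quality weights in limma-voom ended the calls of NEAT1 (0.24), KCNQ1OT1 (0.102) and MIR17HG (0.188). MIR17HG stood at -1.63 without 24 h replicate 1 and at -3.26 without 24 h replicate 2, called in both.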

How the results depend on the processing

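The number of the 9 lncRNAs called depended on the test and the libraries. With each library left out in turn it was 3 to 5 at 6 h against 0 h (3 without 6 h replicate 1, 5 with all), 4 to 6 at 12 h against 0 h, 5 to 8 at 24 h against 0 h, 2 to 4 at 12 h against 6 h (2 without 12 h replicate 3), 1 to 5 at 24 h against 12 h (1 without 12 h replicate 2, 12 h replicate 3 or 24 h replicate 2) and 4 to 6 at 24 h against 6 h. A lone 24 h library is then assumed to vary like the other groups. Calls over all tested genes moved too, from 989 to 61 at 12 h against 6 h without 12 h replicate 3. With sample quality weights in limma-voom, 7 and 9 of the 9 were called at 6 and 12 h against 0 h, from 5 and 6. Of all 19981 tested genes 13182 and 14908 were called there. The weights left 4 calls at 24 h against 0 h, 1 at 24 h against 12 h and 1 at 24 h against 6 h. Over all tested genes they left 6169, 1093 and 2531. Without the filter on low counts, 6, 8 and 9 of the 9 were called at 6, 12 and 24 h against 0 h. So were 11360, 10758 and 13132 of all 39835 genes. These counts are no result about the 9 as a group. At 24 h against 12 h, limma-voom left 2, library size alone 1, and the edgeR fit of these 2 groups alone 0. In that last fit 4 of the 9 had an unadjusted p under 0.05, and 0 of all 17807 tested genes were called. Its 0 is therefore no result about the 9. DESeq2 with all libraries called 4. With the replicate number as a block, 2 of the 9 were called at 24 h against 12 h, and the block moved no other of these counts by over 1.5 times. The median correlation was -0.0493 for same-numbered libraries and 0.0240 for others, which does not decide whether the numbers pair the samples.

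Over single lncRNAs, 1026 of 1182 alternative values kept direction and side of the threshold, 76 were no longer called, 29 were newly called, and 50 changed sign without a call in either fit. The values that kept their side include results uncalled in both fits and fits without a library of neither group compared. Their share is therefore no measure of how firm the calls are. The only called reversal was MIR22HG at 24 h against 6 h, -0.59 (adjusted p 0.0486) with library size alone against 0.03. NEAT1 against 0 h stayed called in every alternative (-4.86 to -2.50), as did MIR17HG at 12 h, except that a filter demanding 10 counts or more per library left it untested. The cause of these differences was not tested. Upper-quartile factors moved the median of all tested genes to -0.10, -0.12 and -0.15 at 6, 12 and 24 h. MIR17HG at 12 h rests on 7 to 10 counts per library. Shares of the counts of tested genes instead of all counts moved 0 of 36 group means by more than 1 SD, and the longest transcript in place of all exons moved 15 of 36 levels per kilobase.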
